A study of Sus scrofa with 3 samples.

Results

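The genes described here are 9 enzymes of mitochondrial carbon oxidation, CS, IDH2, IDH3A, OGDH, SUCLG1, SUCLG2, FH, MDH2 and PDHB. They were taken by symbol from the deposited values, where each of the 9 was found as an mRNA feature among 34579 features per library. PDHB belongs to the pyruvate dehydrogenase complex (PDC), and the other 8 belong to the citrate cycle. Values are given as FPKM, a fragment count divided by the length of the transcript in kilobases and by a measure of library size, so that levels can be set side by side between genes.

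The PDC turns pyruvate, the end product of glycolysis, into acetyl-CoA inside mitochondria. Acetyl-CoA from pyruvate or from fatty acids then enters the citrate cycle, where it is joined to oxaloacetate and oxidized step by step, with the electrons passed on to the respiratory chain. In liver, the cycle also supplies carbon for glucose synthesis and takes up carbon from amino acids and from odd-chain fatty acids.

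Liver was sampled from male Chinese Wuzhishan miniature pigs, and every group ate feed rich in fat and cholesterol (the HFC diet). The labels give an age of 6 to 7 months, which the study states for the pigs when they were obtained. Acclimation, surgery and weeks of the diet followed, so the pigs were older when liver was taken. IM pigs were intact males that had a sham operation, CM pigs were castrated males, and CMT pigs were castrated males given weekly intramuscular testosterone propionate. RNA of a group was pooled in equal amounts into 1 library, with 3 pigs per pool according to the labels, although the study's groups were larger. With 1 library per group, no difference described here has a replicate check, no test between groups is possible, and how much pigs vary within a group cannot be seen.

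The number of reads behind most values could be recovered, because within a gene the 3 values were whole multiples of a step. The recovered reads summed to 32200208 in IM, with 36127819 in CM and 25420893 in CMT. The hepatocyte markers ALB, APOA1, TTR, SERPINA1, TF and FGB lay between 15959 and 690375 FPKM in the 3 libraries, so the defining markers of liver tissue were present. In bulk liver, fewer cells of a type and less RNA per cell cannot be told apart.

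Markers of other liver cells differed between the libraries as well. The summed level of the 5 T and NK cell markers was 394 FPKM in IM compared with 550.5 in CM and 309 in CMT, and each of the 5 was highest in CM. For 4 cholangiocyte markers the sum was 89.4 in IM against 159 in CM and 102 in CMT, and for 3 B cell markers it was 34.1, 43.6 and 33.0. The 4 macrophage markers found summed to 4254, 3231 and 3796. All 4 were lower in CM than in IM and 2 of 4 were higher in CMT than in CM, with the scavenger receptor MARCO at 414 in IM against 82.8 in CM and 317 in CMT. Of the others, 3 neutrophil markers summed to 133, 45.1 and 20.6, 4 endothelial markers to 815, 739 and 739.7, 5 stellate cell markers to 1256, 1360.4 and 1133, and 2 markers of dividing cells to 203, 270.1 and 241. The 6 hepatocyte markers summed to 1020240 FPKM in IM, with 748013 in CM and 788214 in CMT. Most of each sum was ALB, at 690375, 476360 and 445509. Of the 6, 1 was higher in CM than in IM, 5 were higher in CMT than in CM and 2 were higher in CMT than in IM. None of the markers found was at 0 in any library. The part of these cells in the differences described next was not tested.

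The lowest value of any of the 9 genes was 94.7 FPKM, that of IDH3A in IM, which was above 65.7% of the mRNA features that passed the minimum of 1 FPKM used here. The deposited values ran on a large scale. They were 12.8 times in IM, 10.6 times in CM and 12.5 times in CMT the FPKM that follow from the recovered reads, so levels and the minimum are not those of the usual FPKM scale. SUCLG1, the alpha subunit shared by both forms of succinyl-CoA ligase, had the highest level of the 9 in each library, at 4008 FPKM in IM compared with 2288 in CM and 4388 in CMT. SUCLG2, the beta subunit of the GTP-forming ligase, came next in each library with 2370.0, 1877 and 2471. CM held the lowest value of both genes, whereas IM and CMT lay close together.

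FH, the fumarase that hydrates fumarate to malate, was at 1723 FPKM in IM against 1485 in CM and 1649 in CMT. MDH2, the mitochondrial malate dehydrogenase that closes the cycle at oxaloacetate, was at 1423 in IM against 944 in CM and 1470.4 in CMT. IDH2, the NADP-dependent isocitrate dehydrogenase of mitochondria, was at 1274 in IM, with 1268 in CM and 1877 in CMT. For IDH2 the value that stood apart was therefore the high one in CMT, while for MDH2 it was the low one in CM.

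PDHB, the beta subunit of the E1 component that decarboxylates pyruvate, was at 1038 FPKM in IM compared with 635 in CM and 1079 in CMT. OGDH, the E1 component of the 2-oxoglutarate dehydrogenase complex, was at 445 in IM against 369 in CM and 396 in CMT. CS, the citrate synthase that joins acetyl-CoA to oxaloacetate, was at 295, 273 and 364. IDH3A, the catalytic subunit of the NAD-dependent isocitrate dehydrogenase, was the lowest of the 9 in each library with 94.7, 112 and 118 FPKM.

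**Figure D1:**
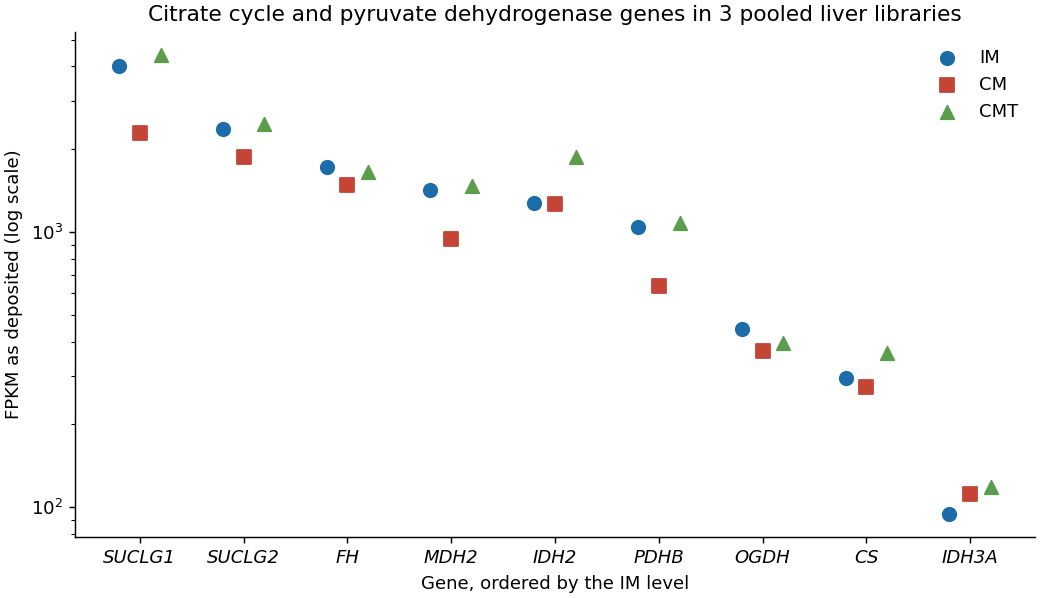
Deposited FPKM (log axis) of the 9 genes, ordered by their IM level, with 1 point per pooled library and no error bar because each group had 1 library. SUCLG1 was highest and IDH3A lowest in each library, and the CM points of SUCLG1, MDH2 and PDHB lay below the IM and CMT points.

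The order of the levels was the same in the 3 libraries for SUCLG1 and SUCLG2 at the top and for PDHB, OGDH, CS and IDH3A at the bottom. The middle of the order differed. IDH2 was in place 5 in IM, in place 4 in CM and in place 3 in CMT. No spread over samples exists against which neighbours in this order could be judged. Together the 9 genes summed to 12669 FPKM in IM against 9252 in CM and 13814 in CMT, which was 0.146%, 0.128% and 0.161% of the column sum. SUCLG1 alone made up 31.6% of the sum of the 9 in IM, but 24.7% in CM and again 31.8% in CMT.

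The comparison of CM with IM addressed the loss of testicular hormones on the HFC diet. SUCLG1, PDHB and MDH2 were lower in CM by at least 1.5-fold, and none of the 9 was higher by that much. This was 3 of 9 genes, where, of the 15613 mRNA features at 1 FPKM or more in each library, 12.1% were lower by 1.5-fold, 11.1% were higher and 23.2% differed in either direction. The median log2 ratio of the 9 was -0.27, with -0.02 over all of these features. As deposited, 8 of the 9 genes had a log2 ratio below 0, where 8124 of the 15613 features did. Only 5 of the 9 did with values scaled to equal column sums and 4 with values scaled to the recovered reads. These scalings also moved the median of all features, to 0.24 and 0.26.

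SUCLG1 had a CM to IM ratio of 0.571, with a 95% exact binomial interval of 0.557 to 0.586 from 13640 reads in IM and 10611 in CM. Such intervals cover the counting error of 2 libraries and nothing else. PDHB had a ratio of 0.612, with an interval of 0.573 to 0.653, from 1991 and 1659 reads. MDH2 had a ratio of 0.663, a 1.51-fold difference that lay just past the fold. No length of up to 10000 bases gave whole reads for MDH2, and no interval was computed for it.

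The other 6 genes stayed inside 1.5-fold. SUCLG2 had a log2 ratio of -0.34 (-0.38 to -0.29), so it lay nearer to 0 than its partner SUCLG1. OGDH was at -0.27 (-0.32 to -0.21) and FH at -0.21 (-0.26 to -0.17), and both moved to values between -0.01 and 0.07 with values scaled to column sums or recovered reads. CS at -0.11 (-0.26 to 0.04) and IDH2 at -0.01 (-0.08 to 0.07) had intervals that included 0, and after those scalings both were above 0. IDH3A was the only one of the 9 above 0 as deposited, at 0.24 (0.09 to 0.38).

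The comparison of CMT with CM addressed testosterone replacement in castrated pigs. SUCLG1, PDHB and MDH2 were at least 1.5-fold higher in CMT, with none of the 9 lower by that much. The background for this comparison was 12.1% of mRNA features higher, 13.5% lower and 25.7% in either direction. The median log2 ratio of the 9 was 0.42, with 0.01 over all features. The log2 ratio was above 0 for all 9 genes as deposited, where 8033 of the 15613 features were above 0. With values scaled to column sums or to recovered reads, 6 of 9 were above 0, and the median of all features was -0.23. This comparison uses the same CM library as the one with IM, so a CM value that is low by chance moves both, and the counts of the comparisons do not support each other.

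SUCLG1 was 1.92-fold higher in CMT than in CM (1.87 to 1.97). PDHB was 1.70-fold higher (1.59 to 1.82) and MDH2 was 1.56-fold higher. IDH2 came next at 1.48-fold (1.41 to 1.56), just under the fold, and its interval reached past it.

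CS was at a log2 ratio of 0.42 (0.27 to 0.57) and SUCLG2 at 0.40 (0.35 to 0.44). FH was at 0.15 (0.10 to 0.20), OGDH at 0.10 (0.04 to 0.16) and IDH3A at 0.09 (-0.06 to 0.23), and these 3 were below 0 after scaling to column sums or recovered reads.

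The comparison of CMT with IM addressed how far replaced pigs lay from intact pigs. None of the 9 genes reached 1.5-fold, where 16.8% of mRNA features did, 6.67% higher and 10.1% lower in CMT. The median log2 ratio was 0.06. MDH2 at 0.05, PDHB at 0.06 and SUCLG1 at 0.13 were near 0, so the 3 genes past 1.5-fold in the comparisons with CM had similar levels in IM and CMT. The largest difference was that of IDH2 at 0.56 (0.48 to 0.64), which passed 1.5-fold at 0.60 with values scaled to the recovered reads. CS at 0.31 (0.15 to 0.47) and IDH3A at 0.32 (0.16 to 0.48) were also above 0, and OGDH was at -0.17 (-0.23 to -0.10).

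**Figure D2:**
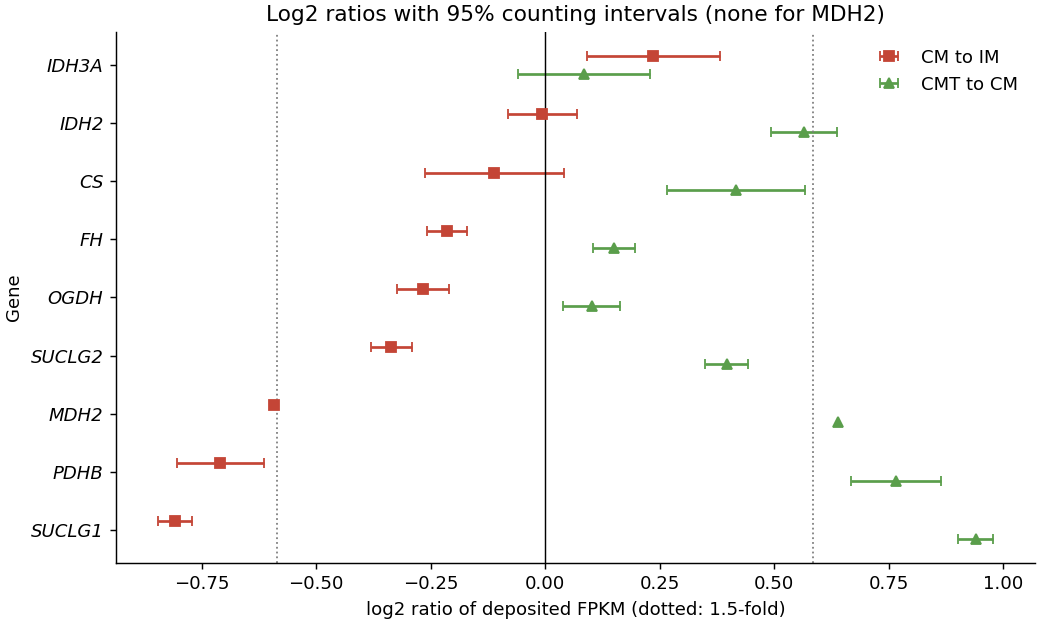
Log2 ratios of deposited FPKM for CM to IM (squares) and CMT to CM (triangles), with 95% exact binomial intervals from the recovered reads as bars and 1.5-fold as dotted lines. SUCLG1, PDHB and MDH2 lie past 1.5-fold in both comparisons, which share the CM library, and MDH2 has no interval. With values scaled to the recovered reads, CS, IDH2, OGDH and FH change sign for CM to IM and IDH3A, OGDH and FH for CMT to CM.

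The scale of the libraries decides where 0 lies. On 1 kb of transcript, 1 FPKM stood for 2.51 reads in IM, with 3.42 in CM and 2.04 in CMT, numbers that were not proportional to the recovered reads of the libraries. Scaling to the recovered reads raised every CM to IM log2 ratio by 0.28 and took the median of all mRNA features from -0.02 to 0.26. It lowered every CMT to CM log2 ratio by 0.24 and took that median to -0.23. After this scaling SUCLG1 was at -0.53, PDHB at -0.43 and MDH2 at -0.31 for CM to IM, none past 1.5-fold. Over all mRNA features, the calls for CM versus IM were 1737 higher and 1884 lower as deposited and 3432 higher and 1003 lower after this scaling, and those for CMT versus CM were 1896 and 2110 as deposited and 1065 and 3497 after it. Relative to the median of all features, these genes kept their distance, since a scaling moves every gene by the same amount. For CMT to CM the scaled values were 0.70 for SUCLG1, 0.53 for PDHB and 0.40 for MDH2, and only SUCLG1 passed 1.5-fold.

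**Figure D3:**
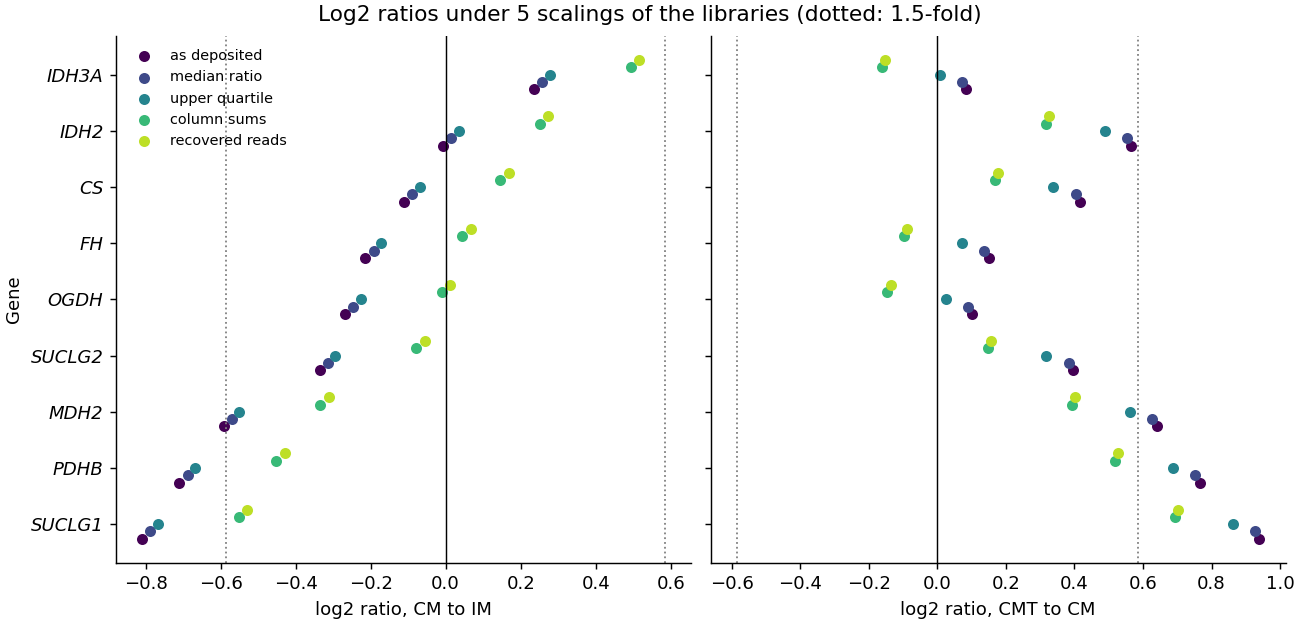
Log2 ratios of the 9 genes for CM to IM and CMT to CM as deposited and under 4 scalings of the libraries, with 1.5-fold as dotted lines. SUCLG1, PDHB, MDH2 and SUCLG2 keep their sign under each scaling, and for CM to IM no gene lies past 1.5-fold with column sums or recovered reads.

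Ratios between partner genes within a library do not depend on the scale. The pairs were chosen after the values were seen, as subunits of one enzyme or forms of the same reaction. In the PDC, the E1 alpha subunit PDHA1 was at 803 FPKM in IM compared with 800.0 in CM and 890 in CMT, values close to each other, whereas its partner PDHB was low in CM. The ratio of PDHB to PDHA1 was 1.29 in IM against 0.794 in CM and 1.21 in CMT. Its log2 change was -0.70 from IM to CM (-0.81 to -0.60), with a 95% normal interval from the reads of the 4 values, and 0.61 from CM to CMT (0.51 to 0.72).

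The other PDC subunits were closer to PDHA1 than to PDHB. DLAT, the E2 acetyltransferase core, was at 159 FPKM in IM against 172 in CM and 199 in CMT. PDHX, which binds E3 to the core, was at 94.6, 110.2 and 124. DLD, the E3 dehydrogenase shared with the 2-oxoglutarate complex, was at 549.7, 468 and 629. As deposited, PDHB was the only one of the 5 subunits past 1.5-fold in either comparison with CM. This was 20% of the 5, where 23.2% of all mRNA features differed by that much between CM and IM. Between CMT and CM, 25.7% of them did. With values scaled to column sums or recovered reads, none of the 5 subunits was past 1.5-fold in these comparisons.

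In succinyl-CoA ligase, the alpha subunit SUCLG1 pairs with SUCLG2 in the GTP-forming enzyme and with SUCLA2 in the ATP-forming enzyme. The ratio of SUCLG1 to SUCLG2 was 1.69 in IM, with 1.22 in CM and 1.78 in CMT, a log2 change of -0.47 from IM to CM (-0.53 to -0.41). SUCLG1 to SUCLA2 was 22.7, 17.0 and 21.2. Between the beta subunits, SUCLG2 to SUCLA2 was 13.4 in IM compared with 13.9 in CM and 11.9 in CMT, and the log2 change from IM to CM of 0.06 had an interval of -0.08 to 0.19. The alpha subunit thus stood lower in CM relative to each beta subunit, while between IM and CM the beta subunits did not separate from each other beyond counting error. From CM to CMT the log2 change of SUCLG2 to SUCLA2 was -0.23 (-0.37 to -0.09).

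NAD-dependent isocitrate dehydrogenase consists of IDH3A, IDH3B and IDH3G. IDH3B was at 381 FPKM in IM against 301 in CM and 442 in CMT, and IDH3G was at 666, 482 and 691. The ratio of IDH3A to IDH3G was 0.142 in IM against 0.231 in CM and 0.171 in CMT, a log2 change of 0.70 from IM to CM (0.54 to 0.87). IDH3A to IDH3B was 0.248, 0.371 and 0.268. Here the catalytic subunit was highest in CM relative to its partners, the opposite order of that seen for PDHB and SUCLG1.

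OGDH has a paralogue, OGDHL, which encodes another E1 component of the same kind. OGDHL was at 467 FPKM in IM, with 145 in CM and 536 in CMT, the widest range of any cycle enzyme listed when taken as a fold. OGDH to OGDHL was therefore 0.952 in IM compared with 2.54 in CM and 0.739 in CMT. No reads were recovered for OGDHL, and no interval was computed for it. DLST, the E2 subunit of the complex, was at 529, 428 and 540.3, and OGDH to DLST was 0.841, 0.862 and 0.734. OGDH and DLST thus kept nearly the same ratio in IM and CM, with a log2 change of 0.04 (-0.07 to 0.15), while OGDHL had its lowest level in CM.

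Malate dehydrogenase has a cytosolic form, MDH1, at 673 FPKM in IM against 775 in CM and 1166 in CMT. MDH2 to MDH1 was 2.11 in IM against 1.22 in CM and 1.26 in CMT, so that this ratio was similar in both castrated groups. The cytosolic isocitrate dehydrogenase IDH1 was listed at 0 in all 3 libraries, and no ratio of IDH2 to it was formed. Because the annotation used for counting is not known, this 0 does not show that the livers lacked IDH1 mRNA.

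**Figure D4:**
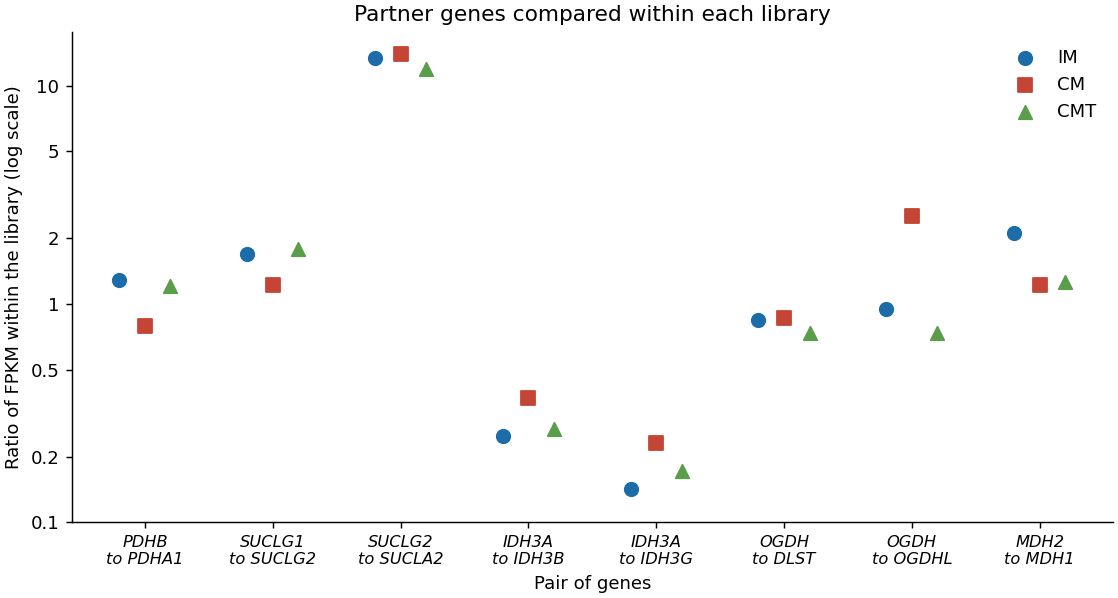
Ratio of the FPKM of partner genes within each library (log axis), 1 point per pooled library. CM lies lowest for PDHB to PDHA1 and SUCLG1 to SUCLG2, and highest for IDH3A to IDH3B, IDH3A to IDH3G and OGDH to OGDHL, while MDH2 to MDH1 is highest in IM.

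The wider pathway was taken as a list of 63 genes, of which 59 were found and 58 passed the FPKM minimum, IDH1 being the exception. For CM versus IM, 11 were at least 1.5-fold lower and 4 at least 1.5-fold higher, 25.9% of the list against 23.2% of all mRNA features. With values scaled to the recovered reads these became 5 lower and 7 higher, and with column sums 5 and 6. Of all mRNA features, 6.42% were then lower and 22% higher with recovered reads, and 6.87% and 20.7% with column sums. For CMT versus CM, 13 were higher and 3 lower, 27.6% against 25.7%. These became 6 higher and 5 lower with recovered reads and 6 and 6 with column sums. Of all mRNA features, 6.82% were then higher and 22.4% lower with recovered reads, and 6.73% and 22.9% with column sums. As deposited, the share past the fold was near that of all features. The list had a median log2 ratio of -0.22 in the first of these comparisons and of 0.21 in the second. Both changed sign with values scaled to column sums or recovered reads. With recovered reads they were 0.058 and -0.032, beside medians over all mRNA features of 0.26 and -0.23.

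Among the 18 cycle enzymes of the list, 16 had a log2 ratio of CM to IM below 0 as deposited, with a median of -0.32, and 10 did with values scaled to the recovered reads. Of 15613 mRNA features, 8124 were below 0 as deposited, and the median of all of them was 0.26 after that scaling. OGDHL, SUCLG1 and MDH2 were past 1.5-fold, 16.7% of the 18 against 23.2% of all mRNA features. In CMT versus CM all 18 were above 0 as deposited, where 8033 of all features were. After scaling to the recovered reads 12 of the 18 were above 0, with a median of -0.23 over all features. Past 1.5-fold were 22.2% of the 18 against 25.7% of all features. SUCLA2 joined OGDHL, SUCLG1 and MDH2 past 1.5-fold, at 177 FPKM in IM, with 135 in CM and 207 in CMT. With values scaled to the upper quartile, column sums or recovered reads, only OGDHL and SUCLG1 stayed past 1.5-fold. Of all features, 10%, 6.73% and 6.82% were then higher by 1.5-fold. Succinate dehydrogenase, which is also complex II of the respiratory chain, was uneven. SDHB, its iron-sulfur subunit, was at 3200 FPKM in IM compared with 2197 in CM and 3099 in CMT, and SDHD, a membrane anchor, was at 1322, 1391 and 1449. SDHA was at 1111 FPKM in IM against 781 in CM and 1083 in CMT, and SDHC was at 2238, 2053 and 2373. SDHB and SDHD had the lowest and the highest CM to IM ratio of these subunits. The ratio of SDHB to SDHD, a pair chosen after the values were seen, was 2.42 in IM against 1.58 in CM and 2.14 in CMT.

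The PDC is switched off by the kinases PDK1 to PDK4 and switched on by the phosphatases PDP1 and PDP2. PDK4 was at 1046 FPKM in IM against 905 in CM and 216 in CMT, so that CMT stood apart, with a log2 ratio of -2.07 to CM and -2.28 to IM. PDP2 was at 76.6 in IM, with 29.8 in CM and 72.4 in CMT, from 181, 96 and 139 reads, and its log2 ratio of CM to IM was -1.36. None of the other 5 genes of this group, PDK1, PDK2, PDK3, PDP1 and PDPR, passed 1.5-fold for CM versus IM or CMT versus CM as deposited, but PDP1 did in both, higher in CM, with values scaled to column sums or recovered reads. The calls of PDK4 and PDP2 held under the 4 scalings.

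Genes that feed carbon into the cycle differed in both directions. PC, the pyruvate carboxylase that makes oxaloacetate, was at 2199 FPKM in IM compared with 991 in CM and 2691 in CMT. Of the 4 listed genes of propionyl-CoA breakdown, which ends at succinyl-CoA, PCCA, PCCB and MUT were also lowest in CM, whereas the epimerase MCEE was lowest in IM, at 480.1 FPKM in IM against 510.1 in CM and 522 in CMT. PCCA was at 1063 FPKM in IM against 699 in CM and 1204 in CMT, and PCCB was at 1598, 1186 and 1852. MUT, the methylmalonyl-CoA mutase, was at 963, 567 and 1459.

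The malic enzymes ME2 and ME3 were highest in CM at much lower levels. ME2 was at 38.1 FPKM in IM against 63.6 in CM and 40.7 in CMT, and ME3 was at 55.1, 90.8 and 48.4. The log2 ratios of CM to IM were 0.74 for ME2 and 0.72 for ME3.

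Of the cytosolic counterparts, PCK1, which carries oxaloacetate toward glucose, was at 15266 FPKM in IM, with 6514 in CM and 11000 in CMT. As deposited, PCK1 alone of the 6 cytosolic genes above the minimum passed 1.5-fold between CM and IM. This was 16.7% of the 6, against 23.2% of all mRNA features. Between CMT and CM, only PCK1 and MDH1 passed, 33.3% of the 6 against 25.7%. There MDH1, at 1.505-fold, was not past 1.5-fold under any scaling of the libraries. PCK1 was not past it there with values scaled to column sums or recovered reads. Between CM and IM, PCK1 stayed past 1.5-fold under each scaling. SLC25A12, an aspartate and glutamate carrier, rested on few reads, 27 in IM and 66 in CM, with a CM to IM ratio that had an interval of 1.13 to 2.92. LIAS, which makes the lipoyl group carried by DLAT and DLST, was at 171 FPKM in IM compared with 114 in CM and 208 in CMT. LIPT2, which acts in the same lipoylation pathway, was at 25.3, 12.9 and 10.3, from 79, 55 and 26 reads.

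**Figure D5:**
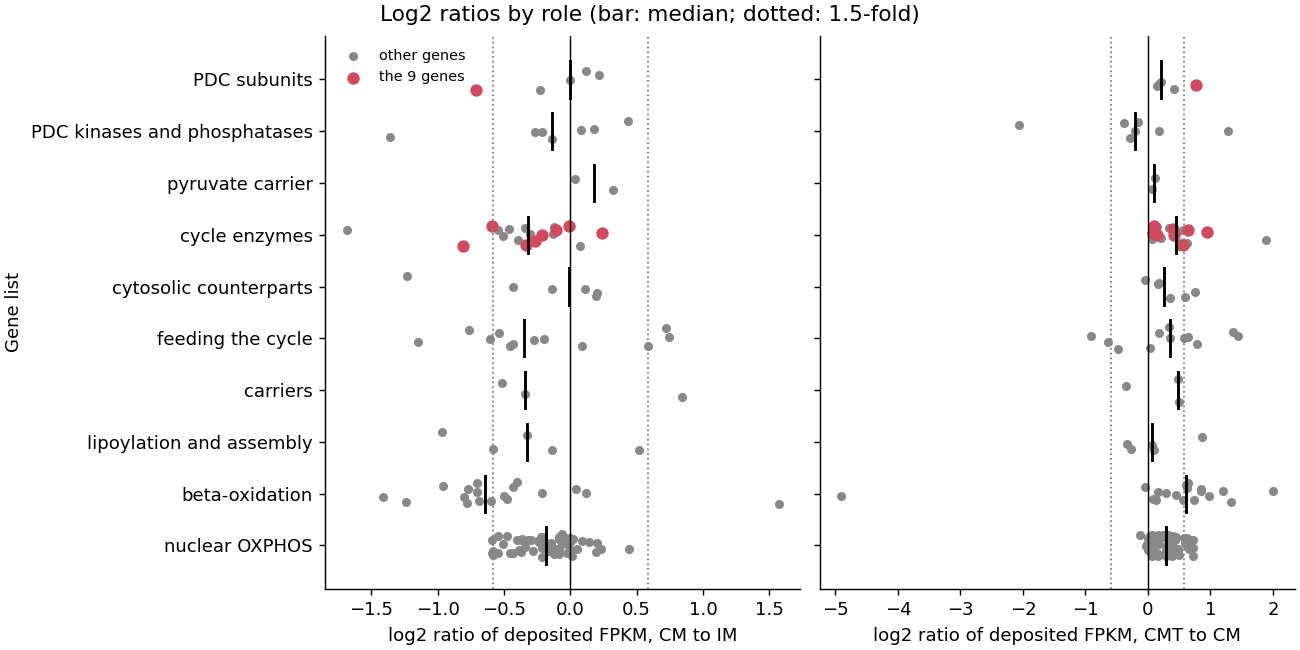
Log2 ratios of deposited FPKM by role for CM to IM (left) and CMT to CM (right), with 1 point per gene past the FPKM minimum, the 9 genes as large points, the median of a list as a bar and 1.5-fold as dotted lines. The median of the cycle enzymes is -0.32 and 0.44, that of beta-oxidation -0.64 and 0.61, and that of nuclear OXPHOS -0.18 and 0.28, the last of which turns to 0.10 for CM to IM with values scaled to the recovered reads.

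Lists of mitochondrial genes with neighbouring functions were set beside the cycle enzymes as a description, with no test of the difference. For mitochondrial beta-oxidation, which delivers acetyl-CoA from fatty acids, 10 of 18 genes lay past 1.5-fold on the lower side in CM relative to IM and 1 on the higher side, with a median log2 ratio of -0.64. For nuclear subunits of oxidative phosphorylation (OXPHOS), which take up the electrons of the cycle, 2 of 58 were lower and none higher, with a median of -0.18. Of all mRNA features, 12.1% were lower and 11.1% higher. The cycle enzymes with 3 of 18 lower and a median of -0.32 lay between these lists. The lower counts became 3 for beta-oxidation, 0 for OXPHOS and 1 for cycle enzymes with values scaled to column sums or recovered reads. Of all mRNA features, 6.87% were lower with column sums and 6.42% with recovered reads. For CMT versus CM the medians were 0.61 for beta-oxidation, 0.44 for cycle enzymes and 0.28 for OXPHOS. With values scaled to the recovered reads the medians of CM to IM were -0.36, -0.04 and 0.10, with a change of sign for OXPHOS. The differences between the lists cannot change under such a scaling, which shifts every gene by the same amount.

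The median of the 9 genes, -0.27 for CM to IM and 0.42 for CMT to CM, was then used as a pattern. Among 7701 mRNA features outside the list with a mean FPKM of at least 50, the nearest 5 by Euclidean distance in these log2 ratios were ALKBH7, PAAF1, LOC100514580, LOC100525600 and MIEN1, at distances of 0.0033 to 0.0092. With 3 libraries such a match is easily found, and 228 features, 2.96% of those searched, lay within 0.1.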

How the data were processed

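Pooled liver RNA of each group gave 1 TruSeq library, sequenced on an Illumina HiSeq instrument. The authors checked reads with FastQC, mapped them to Sscrofa10.2 with TopHat at default parameters and deposited FPKM values. The counting program, annotation and versions are not given in the sources used here. FPKM values were used without rescaling or a pseudocount. Lengths of up to 10000 bases and a divisor per library that made the values whole reads, within 0.002, gave reads for 23106 of 24277 features above 0 (95.2%). A common factor can be lost or added: of 13 mitochondrial genes, 9 lengths lay within 2 bases of RefSeq's. Depth was 25420893 to 36127819 recovered reads, and intervals cover counting error only. Reads without molecular identifiers, and possibly both mates of a pair, are not independent molecules.

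Groups came from the sample titles. Genes were compared by FPKM ratios and counted at 1.5-fold where each library had 1 FPKM or more, the fold and minimum of the study without its FDR criterion. Alternatives were 2-fold, a pseudocount of 1, no minimum or one of 10 FPKM, 4 scalings, and an exact binomial test on reads with a Benjamini-Hochberg FDR under 0.05. The steps were tested on simulated data. The 9 genes and the lists were chosen with earlier results of these data known. Named genes were the 9, list genes past 1.5-fold in CM versus IM or CMT versus CM, their partners, and the 5 nearest patterns. Some genes in the text lay outside this rule, such as SDHB, SDHD, MCEE, PHB2, ACADL and ACAA2. The values of 1 list gene that this rule names are not reported here. Of 63 list genes, 55 matched by symbol and 4 through the RefSeq table of Sscrofa11.1, used for names and mitochondrial lengths only; MPC1 is BRP44L there. Ratios of partner genes were added after the values were seen. Python 3.11.15 was used with scipy 1.17.1, matplotlib 3.10.9, pandas 2.3.3, statsmodels 0.14.6 and numpy 2.4.6.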

Additional observations from a re-analysis of the deposited data

How the results depend on the processing

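No paired analysis was possible because each group has 1 library, and no library could be left out. For CM versus IM, the number of the 9 genes past the fold went from 3 to 0 at 2-fold and to 0 with values scaled to equal column sums or to the recovered reads, and their median log2 ratio moved from -0.27 to -0.011 and 0.013 under these scalings, the latter a reversal. Upper-quartile or median-ratio scaling left 2, since MDH2 then lay at -0.55 and -0.57. For CMT versus CM, the number went from 3 to 0 at 2-fold, to 1 with column sums or recovered reads and to 2 with the upper quartile, and the median of 0.42 became 0.34 with the upper quartile, 0.17 with column sums and 0.18 with recovered reads. For CMT versus IM, scaling to the recovered reads took the number from 0 to 1, which was IDH2. For the wider list, 2-fold left 4 of 15 genes for CM versus IM, 5 of 16 for CMT versus CM and 2 of 4 for CMT versus IM. The share of all mRNA features past 2-fold was not computed, so the counts at 2-fold cannot be set against it. Its median turned from -0.22 to 0.034 with column sums and 0.058 with recovered reads for CM versus IM, and from 0.21 to -0.041 and -0.032 for CMT versus CM. Over all mRNA features, 52.0% of the calls for CM versus IM were lower as deposited and 22.6% with recovered reads, and 52.7% and 76.7% for CMT versus CM. An FDR under 0.05 in the binomial test on reads was also asked for, which compares 2 libraries and not the conditions. This left SUCLG1 and PDHB in both comparisons with CM, since MDH2 has no recovered reads. Among the 14704 features put to the same test, 17.3% were called when CM was set against IM. The share was 19.1% when CMT was set against CM. Minimums of 10 FPKM or none and a pseudocount of 1 left each count of the 9 genes as it was. Depth limits genes of few reads such as SLC25A12 and LIPT2, while pigs within a pool cannot be told apart at any depth.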

Other observations

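Regulators of mitochondrial gene expression were also looked up, from a list of 10 genes, 9 of them mRNA features at 1 FPKM or more in each library. The genes named here were chosen after their values were seen. As deposited, 7 of the 9 had a log2 ratio of CM to IM below 0 and 2 above 0. Past 1.5-fold, 2 were lower and 1 was higher, where 12.1% of all mRNA features were lower and 11.1% higher. The 1 higher was PPARGC1B, at 4.42 FPKM in IM against 7.94 in CM and 4.66 in CMT. NRF1, at 21.0, 24.7 and 27.4, was the other gene above 0. PPARGC1A, a coactivator of mitochondrial genes, was at 152 FPKM in IM against 60.8 in CM and 55.6 in CMT, so that it was low in both castrated groups, unlike SUCLG1, PDHB and MDH2. ESRRA, a nuclear receptor that works with this coactivator, was at 506 in IM against 340.2 in CM and 621 in CMT, and SIRT3, the main deacetylase of mitochondria, was at 254, 194 and 321. PPARD, a fatty acid receptor, was at 187, 86.0 and 155. For CMT versus CM, 3 of the 9 were at least 1.5-fold higher and 1 was lower by that much. Of all mRNA features, 12.1% were higher and 13.5% lower. The 3 higher were ESRRA, SIRT3 and PPARD, with log2 ratios of 0.87, 0.72 and 0.85. The 1 lower was PPARGC1B, at -0.77. SIRT3 was not past 1.5-fold with values scaled to column sums or recovered reads. No link of these genes to the citrate cycle enzymes was tested.

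Among 12 genes of general mitochondrial upkeep, such as the channel VDAC1 and the chaperones HSPD1 and HSPA9, PHB2 alone was past 1.5-fold for CM versus IM as deposited. This was 8.33% of the 12, where 12.1% of all mRNA features were lower by 1.5-fold and 23.2% differed in either direction. PHB2 was at 2577 FPKM in IM, with 1637 in CM and 3109 in CMT, and was not past 1.5-fold with values scaled to column sums or recovered reads. The median log2 ratio of these 12 was -0.16 as deposited and 0.12 with values scaled to the recovered reads.

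The order of beta-oxidation genes was not uniform. ACADL, the long-chain acyl-CoA dehydrogenase, was at 1646 FPKM in IM compared with 619 in CM and 2479 in CMT. ACAA2, the thiolase of the last step, ran the other way at 1004, 2982 and 99.4.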
